A study of Mus musculus with 2 samples.

Results

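The genes of cholesterol and fatty acid synthesis were described as 34 members, chosen by gene symbol out of 55536 mouse genes in the deposited gene tables. Each member matched 1 gene identifier; the rule itself uses no measured value, but the list was drawn up with earlier results of these data known. The members fell into 6 steps: 6 regulators of SREBP and of lipoprotein uptake, 7 enzymes from acetyl-CoA to farnesyl diphosphate, 3 enzymes from squalene to lanosterol, 8 enzymes from lanosterol to cholesterol, 1 sterol carrier and 9 genes of fatty acid synthesis, elongation and desaturation.

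Polyadenylated RNA was sequenced from 2 libraries of macrophages grown from C57BL/6J mouse bone marrow, which the labels number biological replicates 2 and 1, and there was no other group. Both had received 100 ng/ml of a stimulus for 120 minutes, called Lipid A (the membrane anchor of bacterial endotoxin, an agonist of the receptor TLR4) in the sample description and lipoprotein A, a protein, in the treatment field. Sex and age were not collected, both libraries cite 1 donor record, and the labels name no separate animals or cultures, so the spread between them may be technical. Unstimulated macrophages were not analysed here, so the values are levels after stimulation and show no response to it.

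SREBP transcription factors are made as precursors in the endoplasmic reticulum membrane, where SCAP escorts them and INSIG proteins hold the complex back while sterols are plentiful. When membrane sterol falls, the complex moves to the Golgi, proteases release the active fragment, and the genes of the mevalonate pathway, of cholesterol synthesis and of fatty acid synthesis and desaturation are transcribed. SREBP binding sites often lie beside sites for the factors NF-Y and SP1. In macrophages the pathway is known to be coupled to Toll-like receptor and interferon signalling, and oxysterols act on LXR receptors.

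Promoters of 5 members and of 2 starts of Srebf1 are shown, the 5 as examples of members with and without the motifs counted and the starts of Srebf1 because they give 2 forms of the factor with different levels here. RefSeq (GRCm38.p6, the same assembly as mm10) gave windows for 27 of the 34 members, and the other 7, named only, were Fdft1, Fdps, Sqle, Stard4, Scd1, Scd2 and Fads1. Each line gives the 250 bases before a start site, 5′ to 3′ on the strand of the gene, and capitals mark matches on either strand to a sterol element (TCACNCCAC), an E-box (CACGTG), an NF-Y box (CCAAT) or a GC box (GGGCGG). The windows are chr5:28071162-28071411 on the plus strand for Insig1, chr13:119690101-119690350 on the plus strand for Hmgcs1, chr8:122443423-122443672 on the minus strand for Mvd, chr5:4104698-4104947 on the minus strand for Cyp51 and chr19:10101504-10101753 on the minus strand for Fads2. Those of Srebf1 are chr11:60220628-60220877 (upstream start) and chr11:60210472-60210721 (downstream start), both on the minus strand.
Insig1: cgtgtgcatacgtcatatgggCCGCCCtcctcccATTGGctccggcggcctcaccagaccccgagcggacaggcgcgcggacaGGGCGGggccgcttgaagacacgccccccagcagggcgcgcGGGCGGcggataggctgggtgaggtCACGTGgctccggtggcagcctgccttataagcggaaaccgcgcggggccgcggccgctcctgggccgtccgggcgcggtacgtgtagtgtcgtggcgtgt
Hmgcs1: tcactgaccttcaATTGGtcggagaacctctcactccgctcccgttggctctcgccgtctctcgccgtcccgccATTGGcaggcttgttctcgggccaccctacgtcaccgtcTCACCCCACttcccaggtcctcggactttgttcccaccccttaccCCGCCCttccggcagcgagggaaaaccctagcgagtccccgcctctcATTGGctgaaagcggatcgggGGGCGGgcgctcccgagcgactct
Mvd: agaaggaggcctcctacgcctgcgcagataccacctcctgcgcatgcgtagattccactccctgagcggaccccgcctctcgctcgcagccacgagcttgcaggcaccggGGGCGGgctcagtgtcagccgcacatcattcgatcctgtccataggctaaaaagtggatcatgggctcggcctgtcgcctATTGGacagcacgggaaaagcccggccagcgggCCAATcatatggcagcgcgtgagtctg
Cyp51: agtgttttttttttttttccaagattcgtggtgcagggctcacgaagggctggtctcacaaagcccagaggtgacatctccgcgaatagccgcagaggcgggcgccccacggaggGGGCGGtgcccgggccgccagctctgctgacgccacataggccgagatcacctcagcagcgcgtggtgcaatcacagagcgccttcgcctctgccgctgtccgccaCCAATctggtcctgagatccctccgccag
Fads2: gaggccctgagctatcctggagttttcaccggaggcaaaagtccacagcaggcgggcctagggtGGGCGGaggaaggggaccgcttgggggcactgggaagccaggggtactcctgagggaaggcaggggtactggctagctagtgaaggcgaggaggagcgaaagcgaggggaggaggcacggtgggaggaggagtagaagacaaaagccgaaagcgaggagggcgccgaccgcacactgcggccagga
Srebf1 upstream start: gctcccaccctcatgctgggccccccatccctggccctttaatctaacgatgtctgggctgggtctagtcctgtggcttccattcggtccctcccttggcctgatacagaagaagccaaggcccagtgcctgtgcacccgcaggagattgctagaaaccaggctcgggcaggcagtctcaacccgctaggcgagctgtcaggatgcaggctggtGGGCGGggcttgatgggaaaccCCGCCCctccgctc
Srebf1 downstream start: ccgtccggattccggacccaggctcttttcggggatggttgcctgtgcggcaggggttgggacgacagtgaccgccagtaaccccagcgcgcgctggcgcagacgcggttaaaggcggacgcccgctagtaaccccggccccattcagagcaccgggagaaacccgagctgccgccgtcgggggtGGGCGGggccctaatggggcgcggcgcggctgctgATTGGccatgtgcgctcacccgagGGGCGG

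The motifs were counted on both strands over 300 bases, from 250 before to 50 after the most upstream start of each gene, and no match to one motif overlapped a match to another in the members' windows. For Srebf1 the most upstream start lies before both of those shown. An NF-Y box stood in 20 of 27 members (74.1%), against 38.0% of all 27025 promoters and 38.7% of the 7873 promoters of genes at 1 TPM or more in both libraries. By step it stood in 13 of 15 sterol pathway enzymes, 5 of 6 regulators and 2 of 6 fatty acid genes. The start counted was not chosen by RNA level. Transcripts from the counted starts of Insig2 (121332589) and Pmvk (89454541) had 0 TPM in both libraries. That of Srebf1 (60222581) had 0 TPM in replicate 2 and 1.28 TPM in replicate 1. No NF-Y box stood at the start of the highest Insig2 transcript (121328024) or at the upstream Srebf1 start shown (60220627). Dhcr7 and Me1, counted as lacking the box, held it at a later start. With the gene's strand alone, 10 members held the NF-Y box at the counted start, against 21.8% of all promoters. A GC box stood in 21 of 27 members (77.8%), against 35.9% of all promoters and 65.7% of those of expressed genes, and in 14 of 15 sterol pathway enzymes. The E-box stood in 4 members (14.8%; Hsd17b7, Insig1, Sc5d and Scap), against 11.0% of expressed promoters. Hmgcs1 alone held this spelling of the sterol element, 137 bases before its start (3.70% of members, against 1.03% of expressed promoters). These are matches of letters in a window, counted with no test.

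All 34 members were detected, and 32 reached 1 TPM in both libraries (TPM is a level scaled for gene length and for the total of the library). The 2 below that level were Me1 and Elovl6. A level of 5 TPM was reached in both by 28 members, and one of 20 TPM by 12. Their median level was 17.4 TPM in replicate 2 and 13.5 TPM in replicate 1, near the median of 13.3 TPM in replicate 2 and 14.1 TPM in replicate 1 over the 10443 genes tested further down (those whose mean count reached 50). Of those 10443 genes, 9865 reached 1 TPM in both libraries, 7439 reached 5 TPM and 3986 reached 20 TPM. Together the members held 902 TPM in replicate 2 and 699 TPM in replicate 1, or 0.165% and 0.130% of the counts of those libraries. Single members had between 75.6 and 11537 counts in replicate 2 and between 59 and 5108 counts in replicate 1.

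The highest member by mean level was Insig1 (chr5:28071363-28078662, plus strand), with 123 TPM in replicate 2 and 58.1 TPM in replicate 1, and its mean of 90.8 ± 46.1 TPM (SD, n = 2) stood above 86.7% of the 10285 genes at 1 TPM or more in both libraries. Msmo1 came next by mean, and was the highest member in replicate 1, at 65.4 TPM. After it came Srebf2, Acly, Hmgcs1 and Scd2, whose means between 51.4 and 57.5 TPM all lay within 1 SD (22.2 TPM) of that of Scd2. Fdps, Ebp, Fads1 and Insig2 completed the 10 highest. In a second deposited quantification Sc5d, at a mean of 24.7 TPM, stood above Insig2, at 21.7 TPM, so the place of Insig2 depended on the quantification. At the low end, Lss, Hsd17b7, Me1 and Elovl6 had mean levels between 0.875 and 2.96 TPM.

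**Figure D1:**
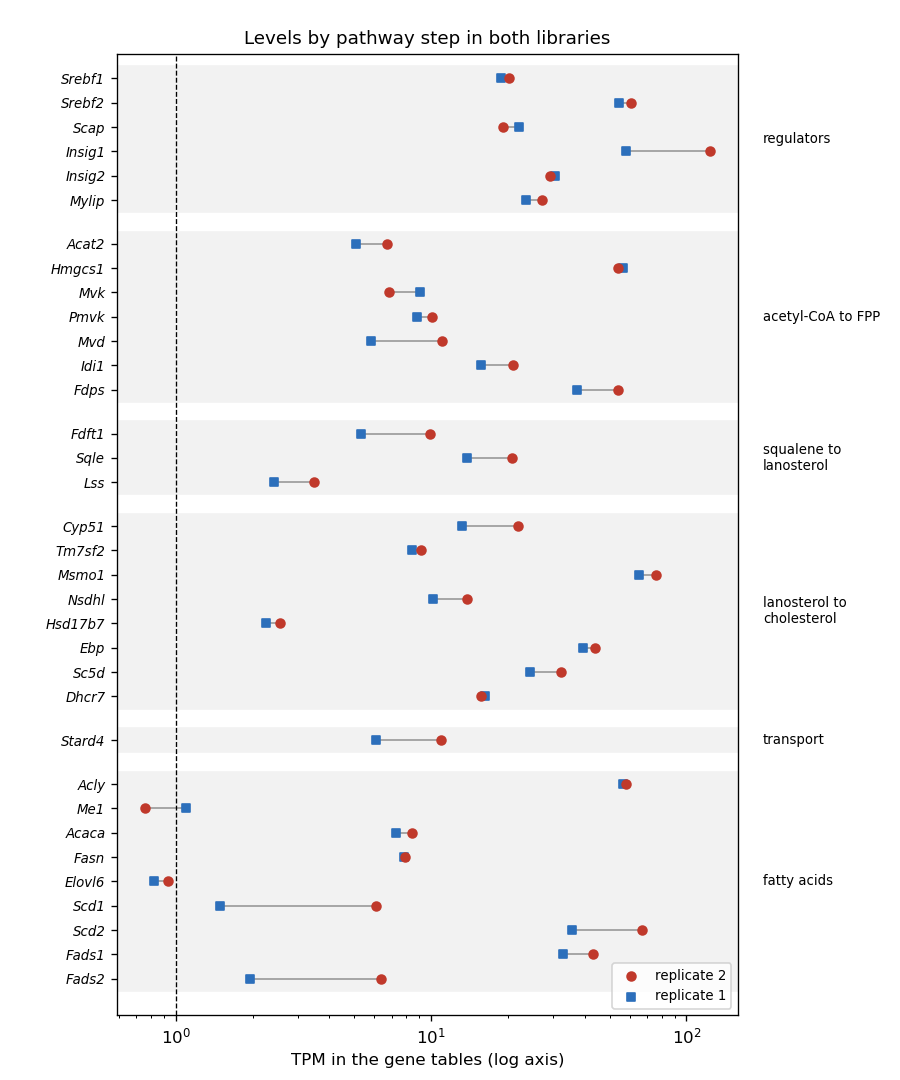
Level of each member in TPM on a log axis, grouped by pathway step from the regulators at the top to the fatty acid genes at the bottom (FPP, farnesyl diphosphate); circles are replicate 2, squares are replicate 1, and the dashed line marks 1 TPM. Insig1 lies farthest right in replicate 2 at 123 TPM, Msmo1 in replicate 1 at 65.4 TPM, Me1 and Elovl6 lie at the left edge, and Scd1 and Fads2 have the widest gaps between the libraries.

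Among the regulators, Srebf2 (chr15:82147181-82205379, plus strand), which encodes SREBP-2, the form directed mainly at cholesterol synthesis, had 60.9 TPM in replicate 2 and 54.2 TPM in replicate 1. Srebf1 (chr11:60199089-60222581, minus strand), which encodes the SREBP-1 forms, had 20.3 TPM in replicate 2 and 18.8 TPM in replicate 1. The level of Srebf2 was 3.002 times that of Srebf1 in replicate 2 and 2.88 times in replicate 1, so the libraries differed little in this ratio. Scap, the escort protein, had 19.2 TPM in replicate 2 and 22.1 TPM in replicate 1. Insig2, the second retention protein, had 29.2 TPM in replicate 2 and 30.6 TPM in replicate 1. Insig1, itself a known target of SREBP, was 4.23 times as high as Insig2 in replicate 2 and 1.90 times in replicate 1, so its lead was wider in replicate 2. The second quantification put this lead at 4.97 times in replicate 2 and 2.16 times in replicate 1. Its size is uncertain, because short transcripts with few counts held much of the Insig2 TPM. Insig2-201 had 1244 of 1304 counts but 53.1% of the TPM in replicate 2, and 826 of 889 counts but 49.6% in replicate 1. Mylip, a ubiquitin ligase for lipoprotein receptors and a known LXR target, had 27.1 TPM in replicate 2 and 23.5 TPM in replicate 1.

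The first steps of the mevalonate pathway were uneven in level. Hmgcs1 (chr13:119690379-119708260, plus strand), the cytosolic HMG-CoA synthase, had 53.7 TPM in replicate 2 and 56.7 TPM in replicate 1. Fdps, the farnesyl diphosphate synthase, had 54.0 TPM in replicate 2 and 37.3 TPM in replicate 1. These were the highest of the 7 genes of the step, and their libraries were close for Hmgcs1 and apart for Fdps. Idi1, the isopentenyl diphosphate isomerase, had 20.9 TPM in replicate 2 and 15.8 TPM in replicate 1. The decarboxylase gene Mvd (chr8:122433601-122443422, minus strand) had 11.0 TPM in replicate 2 and 5.84 TPM in replicate 1. Both genes were higher in replicate 2, Mvd by the wider margin. The kinase gene Pmvk had 10.1 TPM in replicate 2 and 8.81 TPM in replicate 1, while Mvk, the kinase one step before it, had 6.87 TPM in replicate 2 and 9.07 TPM in replicate 1. Acat2, a cytosolic thiolase whose level is uncertain because the mouse has a close copy of the gene, had 6.72 TPM in replicate 2 and 5.06 TPM in replicate 1. Mvk was thus the 1 gene of this step lower in replicate 2 on counts, and Hmgcs1 was lower in replicate 2 on TPM alone.

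The 3 genes from squalene to lanosterol, the first steps committed to sterols, were all higher in replicate 2. Sqle, the squalene epoxidase, had 20.7 TPM in replicate 2 and 13.8 TPM in replicate 1. Fdft1, the squalene synthase, had 9.88 TPM in replicate 2 and 5.32 TPM in replicate 1. Lss, which closes the sterol rings, had 3.49 TPM in replicate 2 and 2.43 TPM in replicate 1, the lowest of the 3. At its 3′ end, 774 of the 4227 exonic bases of Fdft1 (18.3%) lie opposite those of Ctsb, a lysosomal protease gene at 10669.6 TPM in replicate 2 and 11153.8 TPM in replicate 1. The strand used in counting is not given in the sources used here, so reads of the 2 genes over those bases cannot be told apart. The count ratio of replicate 2 over replicate 1 was 2.03 for Fdft1 and 1.19 for Ctsb.

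From lanosterol to cholesterol, Msmo1, the methylsterol monooxygenase, led with 76.3 TPM in replicate 2 and 65.4 TPM in replicate 1. Ebp, the sterol isomerase, had 43.7 TPM in replicate 2 and 39.4 TPM in replicate 1. Sc5d, a sterol desaturase, had 32.4 TPM in replicate 2 and 24.3 TPM in replicate 1. These 3 genes were the ones of the step at 20 TPM or more in both libraries. Cyp51 (chr5:4081145-4104746, minus strand), the lanosterol demethylase, had 21.9 TPM in replicate 2 and 13.2 TPM in replicate 1. Dhcr7, which makes cholesterol from its last precursor in one branch, had 15.7 TPM in replicate 2 and 16.3 TPM in replicate 1. Nsdhl, a sterol dehydrogenase, had 13.9 TPM in replicate 2 and 10.2 TPM in replicate 1. Of these, Cyp51 had the widest gap between the libraries as a ratio and Dhcr7 the narrowest. Tm7sf2, a sterol reductase, had 9.10 TPM in replicate 2 and 8.44 TPM in replicate 1. It shares 12.1% of its exonic bases with Vps51 on the same strand, so reads over them may be divided between the genes. Vps51 had 30.1 TPM in replicate 2 and 24.9 TPM in replicate 1. Hsd17b7, a sterol keto reductase, was lowest of the step, with 2.55 TPM in replicate 2 and 2.26 TPM in replicate 1. Stard4, a soluble carrier that moves cholesterol between membranes, had 11.0 TPM in replicate 2 and 6.07 TPM in replicate 1.

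The fatty acid genes ranged from Acly, which makes cytosolic acetyl-CoA from citrate and had 58.0 TPM in replicate 2 and 56.6 TPM in replicate 1, to genes below 1 TPM. Acaca, the acetyl-CoA carboxylase, had 8.40 TPM in replicate 2 and 7.31 TPM in replicate 1. Fasn, the fatty acid synthase, had 7.88 TPM in replicate 2 and 7.82 TPM in replicate 1. The 3 genes therefore stood close to each other between the libraries, with the synthase and carboxylase at similar levels and the citrate enzyme well above them. The second deposited quantification put Fasn at 4.21 TPM in replicate 2 and 4.26 TPM in replicate 1. That is 0.540 times the first, a wider gap than the median of 0.831 over the 34 members. In counts the second quantification stood at 1.05 times the first for Fasn, so the gap was one of TPM and not of counts. It put Acaca at 7.78 TPM in replicate 2 and 6.71 TPM in replicate 1. The similar levels of Acaca and Fasn thus held in the first quantification alone. Me1, a cytosolic source of NADPH, had 0.76 TPM in replicate 2 and 1.10 TPM in replicate 1. Elovl6, which elongates palmitate, had 0.93 TPM in replicate 2 and 0.82 TPM in replicate 1.

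The desaturases among the members formed 2 pairs of nearby genes on chromosome 19, with a further desaturase gene, Scd4, between Scd2 and Scd1. Other desaturase genes lie near both pairs, Scd3 before Scd2 and Fads3 beside Fads2 on the side away from Fads1. Scd2 (chr19:44293674-44306864, plus strand), a stearoyl-CoA desaturase, had 67.1 TPM in replicate 2 and 35.7 TPM in replicate 1. Its paralog Scd1 (chr19:44394455-44407879, minus strand), 87590 bases away, had 6.06 TPM in replicate 2 and 1.49 TPM in replicate 1. Scd2 exceeded Scd1 by 11.1 times in replicate 2 and 23.9 times in replicate 1, and since the paralogs are alike in sequence, reads may be divided between them and the Scd1 level is uncertain. Fads1 (chr19:10182888-10196877, plus strand), a desaturase of polyunsaturated fatty acids, had 43.2 TPM in replicate 2 and 32.9 TPM in replicate 1. Fads2 (chr19:10062765-10101746, minus strand), which acts before it in the same chain and lies 81141 bases away, had 6.39 TPM in replicate 2 and 1.95 TPM in replicate 1. In both pairs the lower gene was the one with the wider ratio between the libraries. Fads1 exceeded Fads2 by 6.76 times in replicate 2 and 16.9 times in replicate 1.

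The libraries were then compared as counts, replicate 2 over replicate 1, after TMM scaling (edgeR's trimmed-mean factors). With 1 library on each side there is no test, and the intervals given are exact binomial 95% intervals that cover counting error only. Of the 34 members, 32 were higher in replicate 2 by any amount, where 53.5% of the 10443 genes tested were, and the exceptions were Mvk and Me1. On the log2(TPM + 1) scale 28 members were higher, since Scap, Insig2, Hmgcs1 and Dhcr7 were also lower there. The median log2 ratio of the members was 0.43 (range -0.19 to 1.93), against 0.03 over all genes tested. On log2(TPM + 1) both medians moved, to 0.21 for the members and -0.09 for all genes, and 31 members lay above the median of all genes on either scale.

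At 2-fold or more, 6 of 34 members were higher in replicate 2, where 1.85% of all genes tested were, and 0 were lower, where 2.14% were. Over all genes that is 193 higher and 224 lower (3.99% in all), and on log2(TPM + 1) 66 higher and 164 lower, with 3 members (Insig1, Scd1 and Fads2) still past 2-fold. Fads2 had 609 counts in replicate 2 and 119 in replicate 1, a ratio of 3.80 (interval 3.12 to 4.67). Scd1 had 770 counts in replicate 2 and 153 in replicate 1, a ratio of 3.74 (interval 3.14 to 4.48). Insig1 had 9819 counts in replicate 2 and 3156 in replicate 1, a ratio of 2.31 (interval 2.22 to 2.41). For these 3 genes the whole interval lay above 2-fold, a count made for the members only. The other 3 stood at the threshold, with ratios of 2.07 for Mvd (interval 1.75 to 2.45), 2.06 for Scd2 (interval 1.99 to 2.14) and 2.03 for Fdft1 (interval 1.79 to 2.30). The second quantification put Mvd below 2-fold, at a log2 ratio of 0.95. Just outside were Stard4 at 1.87 (interval 1.71 to 2.05) and Cyp51 at 1.80 (interval 1.68 to 1.93).

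At 1.5-fold or more, 13 members were higher in replicate 2, where 7.46% of all genes tested were, and 0 were lower, where 7.14% were. Of the 18 sterol pathway enzymes 8 were in that count, among them Sqle at 1.64, Fdps at 1.59, Lss at 1.58, Idi1 at 1.53 and Nsdhl at 1.501. By step the median log2 ratio was 0.71 from squalene to lanosterol, 0.50 from acetyl-CoA to farnesyl diphosphate, 0.42 from lanosterol to cholesterol, 0.29 for the fatty acid genes and 0.21 for the regulators. The genes for the SREBP factors themselves differed less, by 1.22 for Srebf2 (interval 1.18 to 1.27) and 1.09 for Srebf1 (interval 1.02 to 1.17). Counting error alone covered a ratio of 1 for 7 members (Scap, Insig2, Mvk, Ebp, Dhcr7, Me1 and Elovl6), and the intervals of the other 27 lay above 1. The share of all genes tested whose interval excludes 1 was not computed, so this count does not set the members apart from other genes. The spread between macrophage cultures is not known, since the labels do not say whether these 2 libraries are separate cultures.

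**Figure D2:**
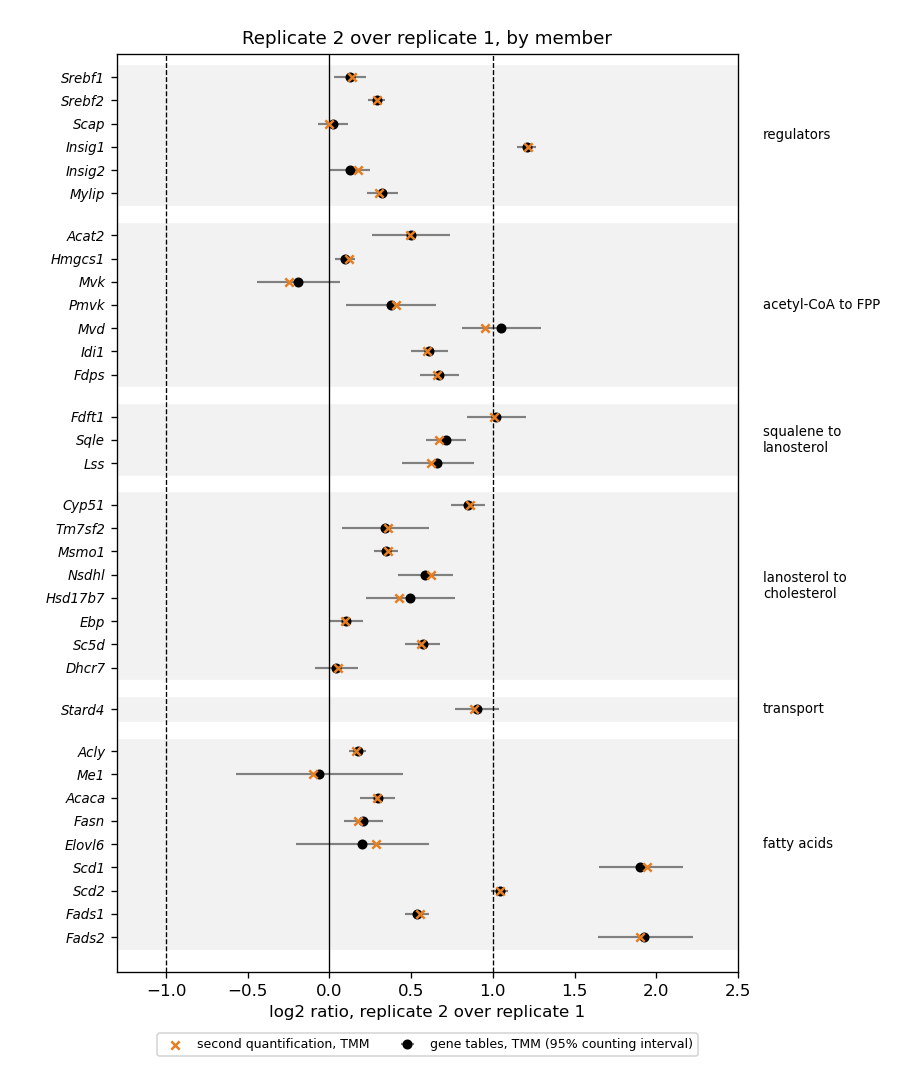
Log2 ratio of replicate 2 over replicate 1 for each member by pathway step, as black circles with 95% counting intervals from the gene tables and orange crosses from the second quantification, both TMM-scaled; dashed lines mark 2-fold. Only Mvk and Me1 lie left of 0 in the gene tables, and Fads2 and Scd1 lie farthest right at 1.93 and 1.90.

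**Figure D3:**
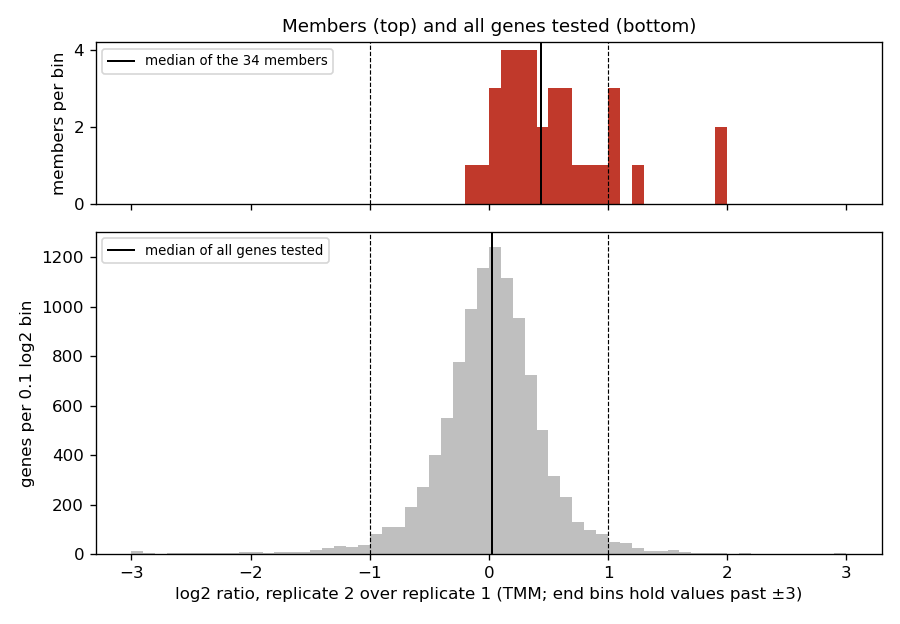
Histograms of the log2 ratio of replicate 2 over replicate 1 in bins of 0.1, for the 34 members above and all 10443 genes tested below, with solid lines at the medians and dashed lines at 2-fold. The members' median of 0.43 stands right of the median of 0.03 over all genes, and no member lies left of -1.

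The libraries also differed in markers of other cells, and this difference stands beside every ratio above. The 8 macrophage markers were all at 1 TPM or more in both libraries, with a summed 23917 TPM in replicate 2 and 18323 TPM in replicate 1, most of it Lyz2, with 19283 TPM in replicate 2 and 13518 TPM in replicate 1. Without Lyz2 the other 7 summed to 4634 TPM in replicate 2 and 4805 TPM in replicate 1. Of 10 granulocyte markers 6 reached 1 TPM in both libraries, and the 10 had a summed 84.2 TPM in replicate 2 and 560 TPM in replicate 1. All 6 of those tested were lower in replicate 2, 5 of them by 2-fold or more, and the defining marker Ly6g had 0 counts in replicate 2 and 4 in replicate 1. Of 8 cell cycle markers 7 were lower in replicate 2, 5 by 2-fold or more, with a summed 64.1 TPM in replicate 2 and 90.9 TPM in replicate 1. The exception was Mki67, the highest of the 8, with 41.6 TPM in replicate 2 and 33.6 TPM in replicate 1. Its count ratio was 1.40 (interval 1.36 to 1.44). Of 4 B cell markers 1 (Cd79b, 1.38 TPM in replicate 2 and 2.33 TPM in replicate 1) was at 1 TPM, and 0 of 4 T cell, 0 of 5 stromal and 0 of 4 adipocyte markers were. Fewer cells of a type and less RNA per cell cannot be told apart in bulk RNA. The part of the granulocyte and cell cycle difference in the members' ratios was not tested.

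The lists of other pathway genes had median ratios closer to that of all genes tested. Among 12 genes of SREBP processing and turnover, all at 1 TPM or more in both libraries, 7 were higher and 5 lower in replicate 2, 0 by 2-fold, with a median log2 ratio of 0.03. Aup1, a membrane protein of the degradation of HMG-CoA reductase, had 133 TPM in replicate 2 and 160 TPM in replicate 1. The widest apart was Rnf145, a sterol-responsive ubiquitin ligase, with 45.3 TPM in replicate 2 and 31.9 TPM in replicate 1, a count ratio of 1.51 (interval 1.44 to 1.59). Of 9 genes of the isoprenoid branches, 3 were higher and 6 lower, with a median log2 ratio of -0.12. Nus1, of dolichol synthesis, had 37.4 TPM in replicate 2 and 43.0 TPM in replicate 1. Fnta, a farnesyltransferase subunit, had 18.7 TPM in replicate 2 and 29.5 TPM in replicate 1, and its partner Fntb had 1.85 TPM in replicate 2 and 3.59 TPM in replicate 1, a count ratio of 0.580. Both subunits were thus lower in replicate 2, Fntb by the wider margin as a ratio.

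Of 21 other sterol and fatty acid enzymes, 17 were tested, and 12 of these were higher and 5 lower in replicate 2, with a median log2 ratio of 0.09. Por, which passes electrons to sterol enzymes and other cytochromes, had 218 TPM in replicate 2 and 365 TPM in replicate 1, and Elovl1, an elongase of very long chains, had 111 TPM in replicate 2 and 132 TPM in replicate 1. The widest apart was Acss2, which makes acetyl-CoA from acetate and is a known SREBP target, with 6.81 TPM in replicate 2 and 3.61 TPM in replicate 1, a count ratio of 1.97 (interval 1.68 to 2.32). Of 9 genes of oxysterols and LXR feedback, 8 were tested, 3 of them higher and 5 lower, with a median log2 ratio of -0.03. Soat1, which esterifies cholesterol, had 279 TPM in replicate 2 and 308 TPM in replicate 1, and Abca1, a cholesterol exporter, had 152 TPM in replicate 2 and 188 TPM in replicate 1. Nr1h3, which encodes the receptor LXR alpha, had 26.1 TPM in replicate 2 and 69.7 TPM in replicate 1, a 2.46-fold lower value in replicate 2 and the 1 gene of the list past 2-fold.

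Transcripts were examined for the 28 members at a mean of 5 TPM or more, each of which has several annotated transcripts. The transcript with the largest share of the gene's TPM was protein-coding in all 28, it held a median of 86.8% of the gene, over 90% in 13 members and under 60% in 4 (Fasn, Mvk, Acly and Insig2). It was the same transcript in both libraries for 27 members, all but Mvk, and in both quantifications for 26, all but Fasn and Acly. In Mvk the 2 leading forms changed places: Mvk-201 held 51.6% of the gene in replicate 2 and 26.0% in replicate 1, and Mvk-202 held 33.2% in replicate 2 and 47.6% in replicate 1, on 288 counts of the gene in replicate 2 and 244 in replicate 1. Fasn-201, the leading form in the first quantification, held 38.1% in replicate 2 and 32.0% in replicate 1, and the second quantification gave it a mean of 18.5% and Fasn-205 a mean of 78.7%.

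The starts of Srebf1 separate the forms SREBP-1a, whose first exon is the upstream one, and SREBP-1c, whose first exon is downstream. Srebf1-201, which begins at position 60220604 of chromosome 11, had 13.2 TPM in replicate 2 and 13.2 TPM in replicate 1, or 64.9% and 70.0% of the gene in those libraries. Srebf1-207, which begins at position 60210465, had 0.54 TPM in replicate 2 and 1.54 TPM in replicate 1. The upstream form thus led in both libraries, by 24.4 times in replicate 2 and 8.56 times in replicate 1. In the second quantification the same lead was 9.34 times in replicate 2 and 3.02 times in replicate 1, so its size, unlike its direction, depended on the quantification. Of the windows printed for these starts, both held GC boxes in the 250 bases, and the downstream one also held an NF-Y box 30 bases before its start.

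Srebf2 also carried a large share outside its coding form. Srebf2-201 had 44.8 TPM in replicate 2 and 40.9 TPM in replicate 1, or 73.6% and 75.4% of the gene. Srebf2-205, annotated as a retained intron, had 15.3 TPM in replicate 2 and 11.7 TPM in replicate 1, or 25.1% and 21.6%. Coding transcripts held under 90% of the gene in 5 members, which were Srebf1 (79.2% on average), Srebf2 (75.7%), Msmo1 (80.8%), Ebp (85.3%) and Fasn (56.1%). For Msmo1, Ebp and Fasn this rested on 1 quantification, since the other gave coding shares of 99.4%, 94.3% and 97.2% on average. Msmo1-206, a processed transcript with 18.0% of the gene in replicate 2 and 19.7% in replicate 1, was near 0 in that second quantification. For Ebp the coding share in the first quantification was 77.95% in replicate 2 and 92.7% in replicate 1. It was thus under 90% in replicate 2 alone.

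**Figure D4:**
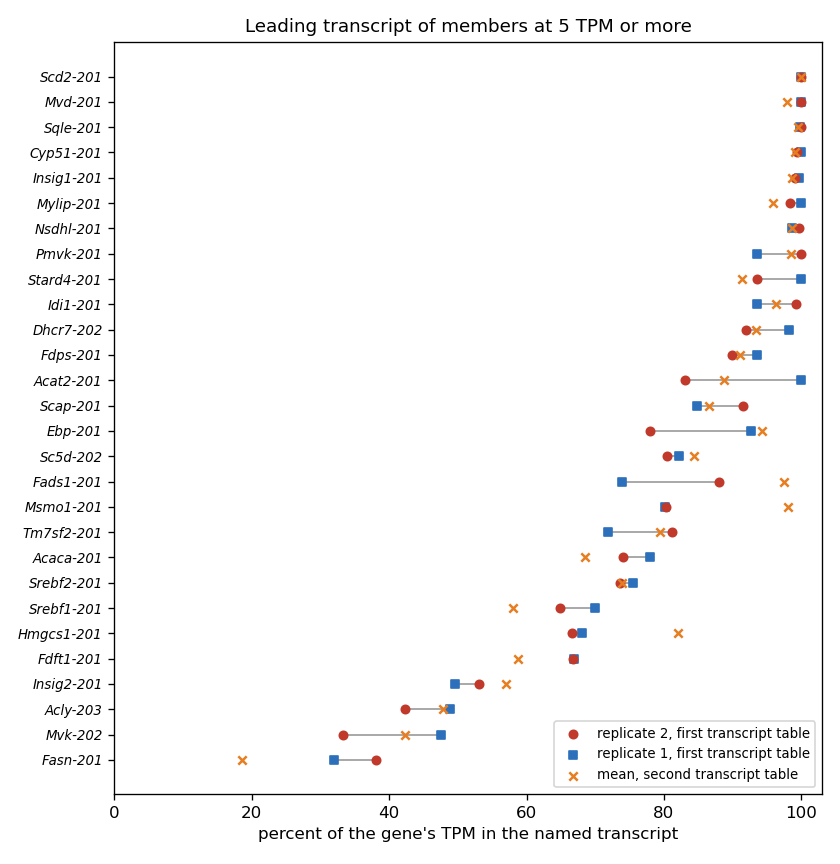
Percent of each gene's TPM held by its leading transcript, for the 28 members at a mean of 5 TPM or more, with circles for replicate 2, squares for replicate 1 and crosses for the mean of the second quantification. Shares are near 100% for Scd2, Mvd and Sqle and lowest for Fasn, and the crosses lie far from the circles and squares for Fasn, Msmo1, Fads1 and Hmgcs1.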

How the data were processed

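Polyadenylated RNA was measured in 2 libraries of 1 group, made from 1 µg of RNA with fragments of 250 to 400 bases per the labels. The authors deposited, per the file headers, gene and transcript tables with RSEM-style columns (expected counts, TPM and percent of the gene in each transcript) and a transcript table with kallisto-style columns (estimated counts and TPM), on assembly mm10 with GENCODE M21; program versions and strandedness are not given in the sources used here. Total expected counts were 50334059 in replicate 2 and 33319563 in replicate 1, of which 0.134% and 0.141% lay outside mouse genes; a count of 3 equals 0.0596 CPM in replicate 2 and 0.0900 CPM in replicate 1. Fold values were computed here from the deposited expected counts, rounded to whole numbers, with TMM factors of edgeR 4.0.16 (0.944 in replicate 2 and 1.06 in replicate 1) over genes whose mean count reached 50; DESeq2 1.42.0 size factors were an alternative. Their calculation was tested on simulated data. The libraries differ by more than sampling noise (chi-square of 121 per degree of freedom, 12177 degrees of freedom). Intervals are exact (Clopper-Pearson) 95% intervals on the split of a gene's counts, and cover counting error only. All 34 members are named; of each of 4 lists of other pathway genes (51 genes) the 2 highest by TPM and the 1 widest apart are, plus any singled out in the text; 1 gene that this rule selects is not reported here. The members and lists were chosen with earlier results of these data known. Exon overlaps between genes came from GENCODE M21, and promoters from RefSeq.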

Additional observations from a re-analysis of the deposited data

How the results depend on the processing

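The number of members at 1 TPM or more was 32 to 33 with each replicate alone, 28 at 5 TPM or more and 32 in the second quantification. The median level of the members, 16.6 TPM over both libraries, was 13.5 to 17.4 TPM with each replicate alone, 14.2 TPM in the second quantification and 20.95 TPM when TPM was rescaled over coding genes. The median log2 ratio of 0.43 stayed between 0.41 and 0.50 under DESeq2 size factors, the second quantification and count minimums of 10 and 200 or none, and was 0.21 on log2(TPM + 1), where the median of all genes was -0.09 in place of 0.03; that setting changes both the library scaling and the pseudocount, and their shares were not separated. The count of 6 members 2-fold apart was 5 in the second quantification, 3 on log2(TPM + 1) and 13 at 1.5-fold. Over all genes, 417 were 2-fold apart, 1022 at a count minimum of 10, 189 at 200, 230 on log2(TPM + 1), 407 in the second quantification and 423 under DESeq2 size factors. No ratio past 2-fold changed sign. The mean TPM of 15 members moved by more than the spread between replicates in the second quantification, and the leading transcript share of 17 members did; the cause was not tested. A comparison of replicates cannot be made without either of them. No paired analysis was possible because there is 1 group. With 2 libraries and no test, no ratio is separated from variation between cultures.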
